A study of Mus musculus with 16 samples.

Results

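The glycolysis and hypoxia response genes were followed in CD8 T cells taken from mouse tumours during treatment with entinostat (ENT), an oral inhibitor of class I histone deacetylases. The 32 genes were chosen by name from the 24028 genes counted, and all 32 were found. They comprise 16 glycolytic enzymes, 4 glucose and lactate transporters, 3 regulators of glycolysis and pyruvate use, 3 genes of the oxygen sensor, and 6 hypoxia targets outside glycolysis. The series asks how the length of treatment alters these T cells. The TS/A line, a mammary adenocarcinoma, was injected into the second mammary pad of BALB/c mice, and dosing with 20 mg/kg entinostat or vehicle each day began at day 7. Entinostat-treated and vehicle-treated tumours were taken at day 10, after 3 days of dosing, and others at day 17, after 10 days of dosing, with 4 libraries in each of the 4 groups. Live cells positive for CD45.2 and CD8 and negative for CD4 were sorted, so tumour cells and CD4 T cells should have been removed. The labels give neither the age nor the sex of the mice, and they do not say whether each library came from its own animal.

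Glycolysis splits glucose into pyruvate in the cytoplasm, and activated T cells run it at a high rate even when oxygen is present, passing much of the pyruvate on to lactate. Hif1a encodes the oxygen-regulated subunit of the hypoxia-inducible factor (HIF). Prolyl hydroxylases encoded by Egln1 and Egln3 mark that subunit for destruction when oxygen is plentiful, and at low oxygen it accumulates and switches on most of the glycolytic enzymes together with Slc2a1, Vegfa, Bnip3 and other targets. In T cells the factor is also raised by antigen receptor and mTOR signalling, so its targets report on activation as well as on oxygen.

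HIF binds a short core, written ACGTG or GCGTG on 1 strand and CACGT or CACGC on the other. Of the 32 genes, 30 had a promoter window in the RefSeq table (GRCm38.p6), which runs from 250 bases before the gene start to 50 bases after it, and Slc2a3 and Bhlhe40 had none. The core was present in at least 1 window of 27 of these 30 genes (90.0%). Counted per window, it was in 35 of 44 windows of the set (79.5%), against 14380 of 32851 windows of all genes (43.8%). The windows of the set were also richer in G and C, with a median of 62.8% against 52.7% over all windows. Among all windows with a G and C content between the quartiles of the set, 64.0% held the core. The 250 bases before the start are shown for the 5 genes on which the results below mainly turn, with each core in capitals. Pgk1 carried 2 cores, Slc2a1 carried 2 and Pfkl carried 1. The Tpi1 and Eno2 stretches carried 0. A match of letters is a description and not a binding site.
Pgk1, chrX:106186850-106187099, plus strand: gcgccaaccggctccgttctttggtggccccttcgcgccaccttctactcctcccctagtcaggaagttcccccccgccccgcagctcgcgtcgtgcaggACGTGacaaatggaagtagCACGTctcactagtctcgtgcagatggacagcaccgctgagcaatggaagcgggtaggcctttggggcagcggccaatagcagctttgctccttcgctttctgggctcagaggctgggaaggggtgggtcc
Slc2a1, chr4:119108495-119108744, plus strand: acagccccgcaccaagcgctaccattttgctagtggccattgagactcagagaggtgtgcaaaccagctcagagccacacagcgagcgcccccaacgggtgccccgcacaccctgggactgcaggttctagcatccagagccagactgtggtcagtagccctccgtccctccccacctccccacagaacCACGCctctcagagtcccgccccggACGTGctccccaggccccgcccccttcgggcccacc
Pfkl, chr10:78009808-78010057, minus strand: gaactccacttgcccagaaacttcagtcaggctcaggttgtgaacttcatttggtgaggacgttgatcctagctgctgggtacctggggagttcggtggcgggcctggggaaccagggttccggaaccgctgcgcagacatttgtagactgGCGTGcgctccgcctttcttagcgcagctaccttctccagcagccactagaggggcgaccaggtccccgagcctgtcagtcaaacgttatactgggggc
Tpi1, chr6:124814159-124814408, minus strand: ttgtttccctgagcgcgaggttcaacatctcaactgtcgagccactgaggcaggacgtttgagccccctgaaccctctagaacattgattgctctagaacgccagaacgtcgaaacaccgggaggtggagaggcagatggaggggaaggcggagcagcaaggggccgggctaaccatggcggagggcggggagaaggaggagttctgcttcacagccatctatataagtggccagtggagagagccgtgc
Eno2, chr6:124769674-124769923, minus strand: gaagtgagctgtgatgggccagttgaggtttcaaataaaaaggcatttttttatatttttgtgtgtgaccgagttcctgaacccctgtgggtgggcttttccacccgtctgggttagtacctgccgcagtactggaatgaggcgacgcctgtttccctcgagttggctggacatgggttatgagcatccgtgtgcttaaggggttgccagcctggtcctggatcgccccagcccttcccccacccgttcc

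The total count of a library lay between 2639019 and 5709243 with entinostat and between 3640768 and 4227704 with vehicle at day 10. At day 17 it lay between 554593 and 3530961 with entinostat and between 2842099 and 6975904 with vehicle. Values are given below as CPM, the counts of a gene per 1000000 counts of the scaled library total. Receptor genes of smell and pheromones (olfactory and vomeronasal), which are no T cell genes, were summed in each library. These sums alone are per 1000000 counts of the unscaled total. They came to 586 to 5722 CPM with entinostat and 582 to 1863 CPM with vehicle at day 10, and 3628 to 6901 CPM with entinostat and 636 to 5290 CPM with vehicle at day 17. The mean CPM of every one of the 32 genes lay above 7.33 CPM, the 95th percentile of those receptor genes, and all 32 passed the filter on low counts. Some of the most abundant glycolytic transcripts did not keep step with sequencing depth. Ldha, which encodes the A subunit of lactate dehydrogenase, had 694 counts in entinostat day 17 replicate 3, the shallowest library, and 1264 to 2122 counts in the other 15, although its total was 4.66 times smaller than the next smallest. Within groups, each doubling of depth went with a change in log2 CPM of -0.47 ± 0.03 (SE) for Ldha, -0.43 ± 0.04 for Gapdh, -0.31 ± 0.04 for Eno1, -0.29 ± 0.04 for Pkm and -0.28 ± 0.04 for Aldoa, while the median of the 32 genes was 0.02. Outside the set, Actb changed by -0.69 ± 0.03 and B2m by -0.62 ± 0.04. Abundant genes as a class did not fall with depth. The 3226 genes of mean CPM 100 or more had a median change of 0.08 per doubling and a 5th percentile of -0.22. Ldha, Gapdh, Eno1, Pkm and Aldoa all lay below that percentile. The CPM of these glycolytic genes, and of Actb and B2m, was thus lower in deep libraries than in shallow ones of the same group. Tpi1 changed by -0.16 ± 0.07 per doubling, with 239 counts in the shallowest library and 355 to 1279 in the other 15. Changes that rest on the 5 glycolytic genes under -0.2 per doubling (Ldha, Gapdh, Eno1, Pkm and Aldoa) are given below with and without the shallowest library.

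**Figure D1:**
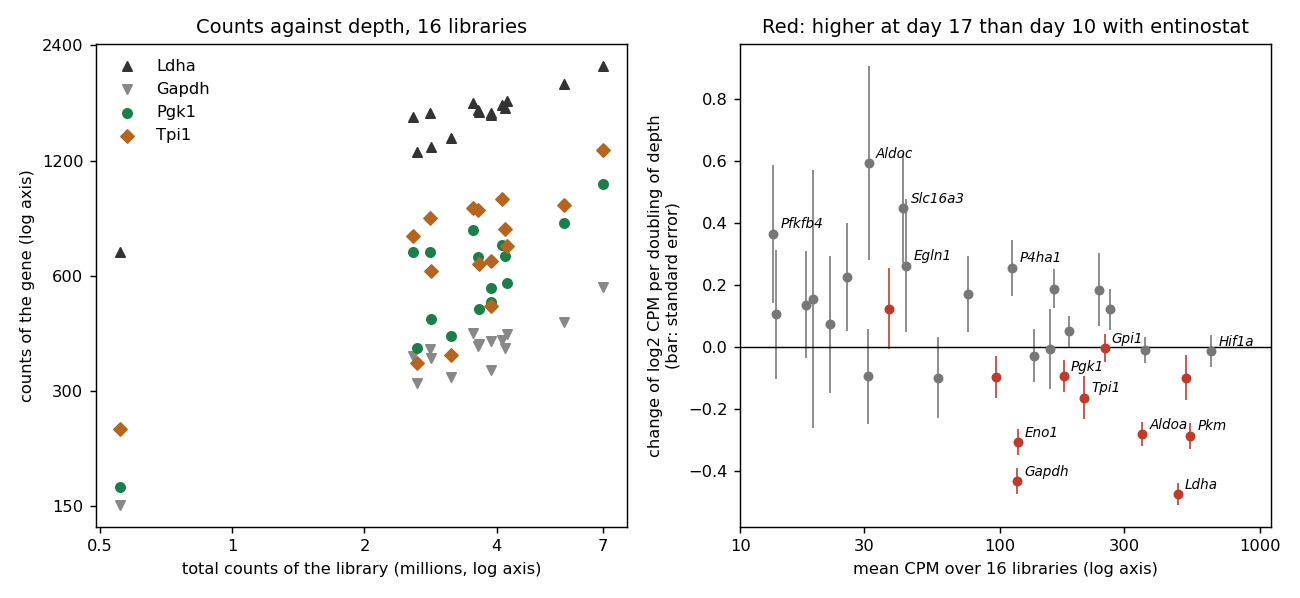
Left, counts of 4 glycolytic genes in each of the 16 libraries against the total counts of the library, both on log axes. Right, the change of log2 CPM per doubling of depth within groups for each of the 32 genes, with its standard error, against mean CPM on a log axis. Genes in red were higher at day 17 than at day 10 with entinostat, and Ldha at -0.47 and Gapdh at -0.43 lie lowest.

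Per kilobase of exon and averaged over all 16 libraries, Ldha was the most abundant of the set at 146 CPM per kb. Hif1a followed at 110.2, Bhlhe40, a transcriptional repressor induced by activation and by hypoxia, at 110.0, and Pkm, which makes pyruvate kinase, at 108 CPM per kb. Aldoa (aldolase), Pgk1 (phosphoglycerate kinase) and Tpi1 (triosephosphate isomerase) stood at 94.9, 78.1 and 76.3 CPM per kb. Slc2a1, the glucose transporter of most proliferating cells, stood at 45.9 CPM per kb, above Slc2a3, a glucose transporter of high affinity, at 33.1. Without division by length the order was reversed, at 161 CPM for Slc2a1 and 239.9 CPM for Slc2a3. Eno2, the enolase isoform known from neurons, had 3.80 CPM per kb against 21.7 for Eno1, the common isoform. Pfkfb4, a kinase and phosphatase that sets the activator of phosphofructokinase, was lowest at 2.75 CPM per kb. The order among Hif1a, Bhlhe40 and Pkm cannot be told from these values, since single libraries of each gene spread far more than the gaps between them. Gapdh, Eno1, Pgam1, Pgk1 and Aldoa have near-identical copies in the genome that could share or lose reads, so their levels are uncertain. Exon length was the union of all exons that GENCODE gives for a gene, so every level per kb also rests on that annotation.

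After 3 days of entinostat 5 genes of the set were lower than with vehicle and Eno2 was higher. Pfkl (liver-type phosphofructokinase), Gpi1 (glucose-6-phosphate isomerase), Tpi1, Slc2a1 and P4ha1 (a collagen prolyl hydroxylase subunit) fell by 0.41 to 0.53 on the log2 scale, and Eno2 rose by 1.58 on that scale. The other 26 genes did not pass the test. In all, 6 of 32 genes (1 higher and 5 lower) were called, a share close to the 14.6% of all genes tested (7.63% higher and 6.93% lower). The median log2 fold change was -0.22 over the 32 genes and 0.06 over all genes, and 7 of the 32 were above 0. With scaling by library size alone, or with only genes above background kept, 3 genes were called (Eno2 higher, Pfkl and Gpi1 lower), against 12.1% and 11.9% of all genes in those fits. With library depth in the model 10 were called (1 higher and 9 lower), against 17.4% of all genes. The median of the genes above the receptor background was -0.12 at day 10 and -0.17 at day 17 in this scaling. Fold changes are given here with that shift included and were not corrected for it.

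Eno2 had 21.1, 21.3, 23.0 and 24.9 CPM with entinostat at day 10, against 5.49, 9.31, 6.14 and 9.13 CPM with vehicle. Every entinostat library lay above every vehicle library. The log2 fold change was 1.58 ± 0.29 (SE, edgeR adjusted p = 0.00312). The vehicle libraries lie around the receptor background of 7.33 CPM, with 2 of 4 below it, so the size of this and of every other Eno2 difference that uses them is uncertain. Receptor reads were also higher in most entinostat libraries, and their part in the Eno2 difference was not tested.

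Pfkl, which commits sugar to glycolysis, had 154, 137, 141 and 170.3 CPM with entinostat, against 202, 215, 224 and 208 CPM with vehicle. The groups did not overlap, and the log2 fold change was -0.49 ± 0.09 (edgeR adjusted p = 0.00249). Gpi1, the enzyme of the step before, had 216, 213, 185 and 223 CPM with entinostat against 279.9, 265, 295 and 279 CPM with vehicle, again without overlap (log2 fold change -0.41 ± 0.08, adjusted p = 0.0048). Eno2, Pfkl and Gpi1 were called under every alternative tried and with any 1 library left out.

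Tpi1, which interconverts the 2 triose phosphates that aldolase releases, had 131, 128, 114 and 164 CPM with entinostat against 196, 186, 192 and 207 CPM with vehicle. No library of either group reached into the other (log2 fold change -0.53 ± 0.14, adjusted p = 0.0197). The call was lost without vehicle day 10 replicate 1 (adjusted p = 0.055) and without entinostat day 10 replicate 1, 2 or 3 (adjusted p = 0.0534, 0.0623 and 0.071), and with scaling by library size alone (adjusted p = 0.0763).

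Slc2a1 had 148, 141, 142 and 178 CPM with entinostat, against 220.1, 206, 191 and 199 CPM with vehicle. The groups did not overlap (log2 fold change -0.42 ± 0.12, adjusted p = 0.0289). P4ha1 had 83.6, 77.7, 87.4 and 136 CPM with entinostat against 144, 115, 145 and 144 CPM with vehicle, and entinostat replicate 4 lay within the vehicle range (log2 fold change -0.50 ± 0.16, adjusted p = 0.0476). Both calls were weak. With the replicate numbers as a block, which were taken to pair the day 10 libraries, Slc2a1 was not called (adjusted p = 0.0654), and 5 of the 32 genes were, against 6.66% of all genes. Leaving out 1 library ended the Slc2a1 call in 10 of 16 fits (adjusted p = 0.0505 to 0.108), all but those without entinostat day 10 replicate 4, entinostat day 17 replicate 2 or 3, or vehicle day 17 replicate 1, 2 or 4. The P4ha1 call held only without entinostat day 10 replicate 4 and was lost in the other 15 fits (adjusted p = 0.0611 to 0.173), and also with DESeq2's size factors (adjusted p = 0.0533) and without the filter (adjusted p = 0.0539).

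**Figure D2:**
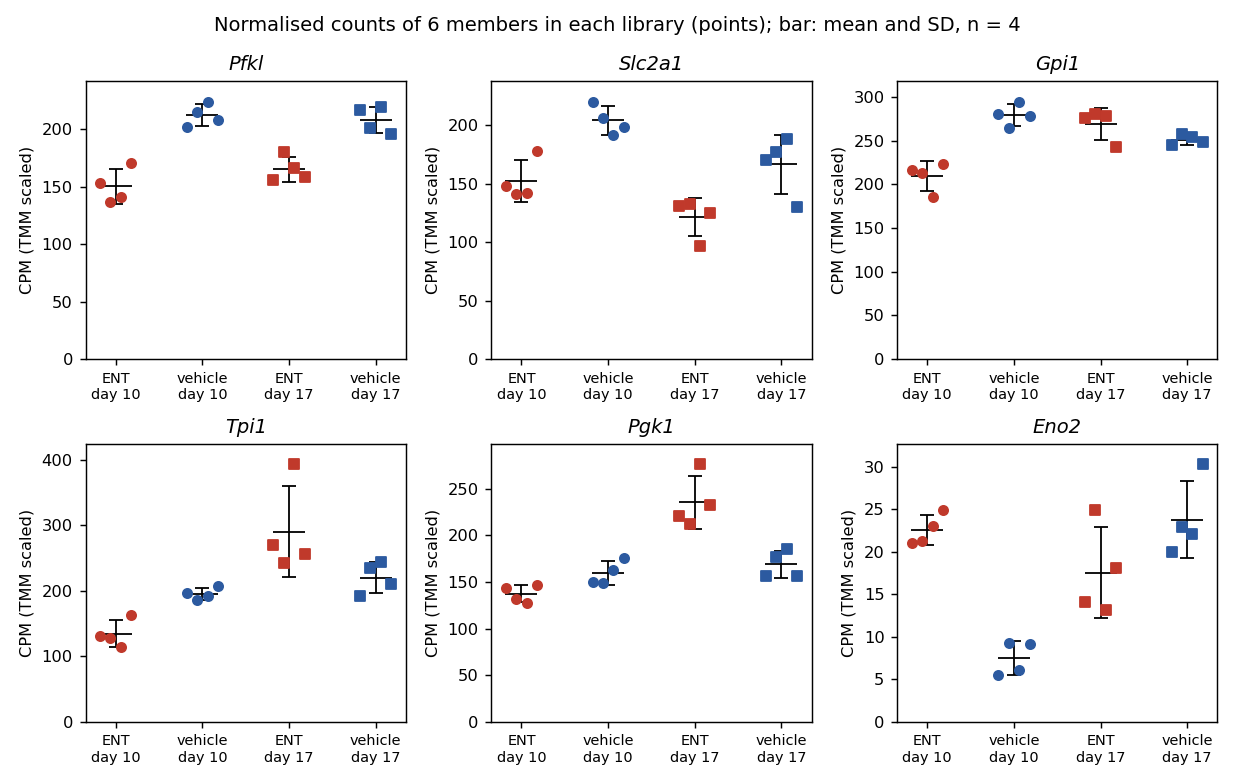
CPM of 6 genes in each of the 16 libraries (points), with the mean and SD of each group (n = 4), entinostat (ENT) in red and vehicle in blue. Pfkl and Slc2a1 were lower with entinostat at both days, Tpi1 and Pgk1 were highest with entinostat at day 17, and Eno2 was low in the 4 vehicle libraries of day 10, at 5.49 to 9.31 CPM.

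Marker genes of other cells moved in the same comparisons. All 8 markers of plasmacytoid dendritic cells were lower with entinostat at both days, and their summed level was 492 to 869 CPM with entinostat against 1280 to 2556 CPM with vehicle at day 10, and 587 to 733 CPM with entinostat against 2171 to 2799 CPM with vehicle at day 17. Of 6 markers of conventional dendritic cells, 2 (Flt3 and Cd209a) were lower at each day, with sums of 136 to 218 CPM against 205 to 575 CPM at day 10 and 180.1 to 221 CPM against 391 to 757 CPM at day 17. The 5 T cell markers found summed to 1350 to 1660 CPM with entinostat and 1552 to 1737 CPM with vehicle at day 10, and to 1378 to 2359 CPM with entinostat and 1260 to 1530 CPM with vehicle at day 17. Their median log2 fold change was -0.157 at day 10, with 1 of 5 above 0, and 0.293 at day 17, with 5 of 5 above 0. At each day 0 were called. The 16 glycolytic enzymes had medians of -0.218 and 0.293. Of the epithelial markers, Cdh1 was lower with entinostat at both days, and the 6 together summed to 112 to 156 CPM against 156 to 259 CPM at day 10 and 87.0 to 189 CPM against 172 to 333 CPM at day 17. Only 4 of these markers were tested, and 3 had log2 fold changes above 0 at day 10 and 2 at day 17. Their median was 0.593 at day 10 and -0.375 at day 17, and 0 were called higher. Of the 5 neutrophil markers found, 4 were higher with entinostat at day 10, with sums of 11.1 to 90.5 CPM against 2.05 to 3.91 CPM with vehicle. Of 4 CD4 T cell markers, 1 (Cd4) was lower at day 10 and 2 (Cd4 and Cd40lg) at day 17, with sums of 90.8 to 139 CPM with entinostat against 116 to 186 CPM with vehicle at day 10, and 41.0 to 139 CPM against 129 to 173 CPM at day 17, although cells negative for CD4 were sorted. Log2 fold changes of 2 of these 4 were above 0 at day 10, and of 1 at day 17. Of 6 fibroblast or endothelium markers, 1 (Cdh5) was lower at day 10 and 3 (Cdh5, Pecam1 and Col3a1) at day 17, and 2 collagen genes (Col1a2 and Col3a1) were higher over time with vehicle. The 6 fibroblast or endothelium markers summed to 123 to 470.2 CPM with entinostat against 149 to 409 CPM with vehicle at day 10, and 175 to 421 CPM against 281 to 1531 CPM at day 17. Their median log2 fold change was 0.782 at day 10, with 4 of 6 above 0, and -1.767 at day 17, with 0 above 0. Natural killer cell markers summed to 359 to 408 CPM with entinostat against 505 to 570.1 CPM with vehicle at day 10, where 1 of 5 was lower. No marker of these lists was at 0 in all 4 libraries of a group. Their part in the changes of glycolytic genes was not tested. In these bulk samples fewer cells of a type and less RNA per cell cannot be told apart.

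After 10 days of entinostat 7 genes of the set were higher than with vehicle and 3 were lower. Hif1a, Pgk1, Pfkp (platelet-type phosphofructokinase), Aldoa, Ldha, Slc2a3 and Egln1 rose by 0.25 to 1.09 on the log2 scale, and Pfkl, Slc2a1 and P4ha1 fell by 0.33 to 0.52. The remaining 22 genes were not called. Upward calls were made for 7 of 32 genes against 5.29% of all genes, and downward calls for 3 of 32 against 13.0% of all genes (18.3% in either direction). The median log2 fold change was 0.18 over the 32 genes and -0.01 over all genes, and 20 of the 32 were above 0. The downward calls depended on scaling, since every gene called was higher with DESeq2's size factors (12 genes, against 6.72% of all genes higher), with library size alone (14 genes, 7.79%) and with only genes above background kept (14 genes, 8.54%). The balance turned with limma-voom, which called 4 higher and 5 lower (28.1% of all genes called), and was even without the filter on low counts, with 3 higher and 3 lower (13.4% of all genes).

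Hif1a had 767, 803, 763 and 602 CPM with entinostat at day 17, against 553, 524, 584 and 497 CPM with vehicle. The lowest entinostat library still exceeded the highest vehicle library (log2 fold change 0.45 ± 0.10, edgeR adjusted p = 0.00379). Pgk1, which makes the first ATP of glycolysis, had 221, 212, 276 and 233 CPM with entinostat, against 157, 177, 186 and 157 CPM with vehicle. These groups also stood apart (log2 fold change 0.47 ± 0.10, adjusted p = 0.00352). Both genes were called in every alternative and with any 1 library left out.

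Pfkp had 394, 402, 388 and 354 CPM with entinostat against 309.9, 333, 357 and 298 CPM with vehicle, with 1 vehicle library just above the lowest entinostat library (log2 fold change 0.25 ± 0.08, adjusted p = 0.0395). Slc2a3 was spread widely with entinostat, at 335, 438, 255 and 159 CPM, against 228, 159, 206 and 183 CPM with vehicle. Its lowest entinostat library was no higher than the lowest vehicle library (log2 fold change 0.63 ± 0.20, adjusted p = 0.0405). Egln1, the main oxygen-sensing hydroxylase, had 29.4, 83.5, 52.6 and 59.8 CPM with entinostat, against 37.8, 25.6, 20.8 and 21.8 CPM with vehicle, and the groups overlapped through 1 library each (log2 fold change 1.09 ± 0.36, adjusted p = 0.0434). All 3 calls were lost without the filter on low counts (adjusted p = 0.15 for Pfkp, 0.062 for Slc2a3 and 0.0542 for Egln1), and limma-voom called neither Slc2a3 nor Egln1 (adjusted p = 0.0521 and 0.142).

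For Aldoa and Ldha 1 shallow library weighed heavily. Aldoa had 378, 371, 628 and 371 CPM with entinostat, against 279, 339, 343 and 336 CPM with vehicle, and Ldha had 511, 454, 1142 and 526 CPM with entinostat, against 318, 428, 430.2 and 444 CPM with vehicle. The groups did not overlap for either gene, and the high value of each was the library of 554593 counts. The log2 fold change was 0.41 ± 0.14 for Aldoa (adjusted p = 0.0482) and 0.68 ± 0.21 for Ldha (adjusted p = 0.0355). Without that library, entinostat day 17 replicate 3, it was 0.23 ± 0.09 for Aldoa and 0.33 ± 0.12 for Ldha, and neither was called (adjusted p = 0.106 and 0.0912). With library depth in the model both came to 0.09, with a standard error of 0.08 for Aldoa and 0.07 for Ldha (adjusted p = 0.557 and 0.53). In the fit without it 5 genes remained called, Hif1a, Pgk1, Slc2a3 and Pfkp higher and Pfkl lower, against 12.3% of all genes. In the fit with depth 3 genes did, Hif1a, Pgk1 and Slc2a3, all higher, against 9.43% of all genes.

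Pfkl had 156, 180.2, 166 and 158 CPM with entinostat at day 17 against 217, 201, 219 and 196 CPM with vehicle, with no overlap (log2 fold change -0.33 ± 0.09, adjusted p = 0.0169). Slc2a1 had 131, 132, 97.1 and 125 CPM with entinostat against 171, 177, 188 and 129.8 CPM with vehicle, where the lowest vehicle library fell inside the entinostat range (log2 fold change -0.43 ± 0.12, adjusted p = 0.0212). P4ha1 had 86.3, 106, 72.4 and 81.7 CPM with entinostat, against 138, 137, 127 and 102 CPM with vehicle, again with 1 vehicle library inside the entinostat range (log2 fold change -0.52 ± 0.17, adjusted p = 0.0392). Pfkl and Slc2a1 were thus lower at both days by similar amounts, and so was P4ha1. These 3 calls were lost with DESeq2's size factors (adjusted p = 0.0685 for Pfkl, 0.0551 for Slc2a1 and 0.0741 for P4ha1), with library size alone (adjusted p = 0.114, 0.107 and 0.115) and with depth in the model (adjusted p = 0.0739, 0.177 and 0.305).

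Leaving out 1 library ended the Pfkl call without entinostat day 17 replicate 1 or 4 or vehicle day 17 replicate 1 or 3 (adjusted p = 0.0713 to 0.0868). For Slc2a1 it did so without entinostat day 17 replicate 3 or 4 or vehicle day 17 replicate 1, 2 or 3 (adjusted p = 0.0688 to 0.0973), and for Ldha also without vehicle day 17 replicate 1 (adjusted p = 0.0949) or 3 (adjusted p = 0.0602). The Pfkp call was lost without entinostat day 10 replicate 1 or 3, entinostat day 17 replicate 1, or replicate 3 of vehicle day 10 or 1 of vehicle day 17 (adjusted p = 0.0593 to 0.0674). Of the 16 such fits, those that lost the call numbered 6 for Aldoa (adjusted p = 0.0561 to 0.114), 8 for Slc2a3 (adjusted p = 0.0525 to 0.13), 7 for Egln1 (adjusted p = 0.0551 to 0.126) and 9 for P4ha1 (adjusted p = 0.056 to 0.137). Aldoa kept it without vehicle day 10 replicate 1, 2 or 4, entinostat day 10 replicate 2 or 4, entinostat day 17 replicate 1, 2 or 4, or vehicle day 17 replicate 2 or 4. Slc2a3 kept it without vehicle day 10 replicate 1, 2 or 4, entinostat day 10 replicate 2 or 4, entinostat day 17 replicate 3 or 4, or vehicle day 17 replicate 1. Egln1 kept it without vehicle day 10 replicate 1, 2 or 4, any entinostat day 10 library, entinostat day 17 replicate 1 or vehicle day 17 replicate 1. P4ha1 kept it without vehicle day 10 replicate 3, any entinostat day 10 library, entinostat day 17 replicate 2 or vehicle day 17 replicate 4.

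**Figure D3:**
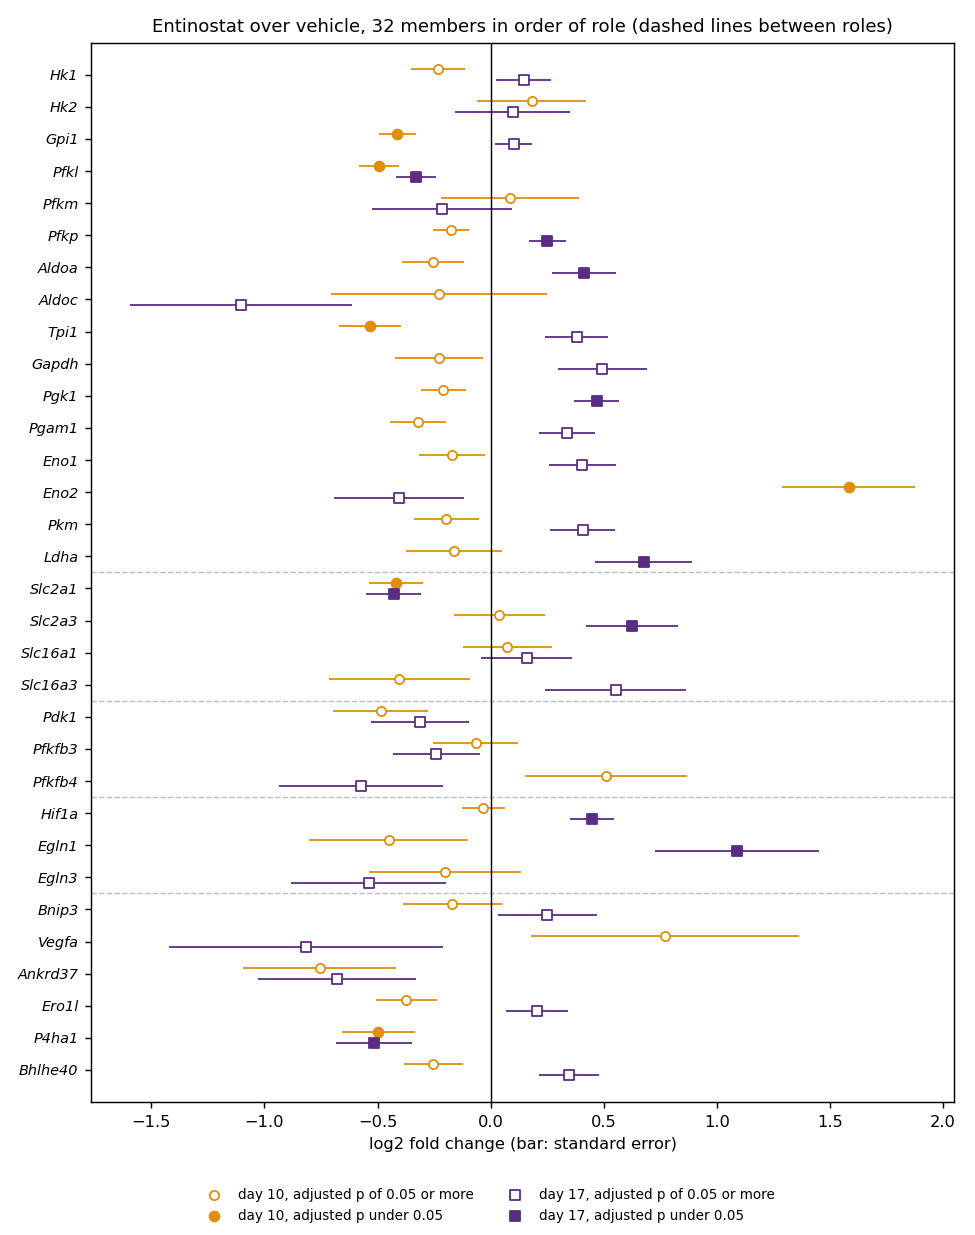
Log2 fold change of entinostat over vehicle for the 32 genes at day 10 (orange circles) and day 17 (purple squares), with standard errors, in order of role. Filled symbols passed an adjusted p of 0.05, 6 at day 10 and 10 at day 17, and Pfkl, Slc2a1 and P4ha1 are filled below 0 at both days.

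The ratio of 2 isoforms within a library does not depend on scaling between libraries, and it is given here for 3 pairs. The pairs were chosen after their values were seen and carry no test. The count of Pfkp over that of Pfkl was 2.33, 2.41, 2.43 and 1.97 with entinostat at day 10, against 1.89, 1.76, 1.83 and 1.79 with vehicle. At day 17 the ratio was 2.53, 2.23, 2.34 and 2.24 with entinostat, against 1.43, 1.66, 1.63 and 1.52 with vehicle. The ranges were separate at both days, with the platelet-type enzyme taking the larger share under entinostat. Slc2a3 over Slc2a1 was 1.25 to 1.88 with entinostat against 0.928 to 1.28 with vehicle at day 10. At day 17 it was 1.27 to 3.31 with entinostat against 0.897 to 1.41 with vehicle, overlapping slightly at each day. Hk1 over Hk2, the common and the inducible hexokinase, was 4.54 to 7.76 with entinostat against 6.89 to 10.8 with vehicle at day 10, and at day 17 it was 9.69 to 14.6 against 8.80 to 15.1. These ranges overlapped between the treatments at each day.

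**Figure D4:**
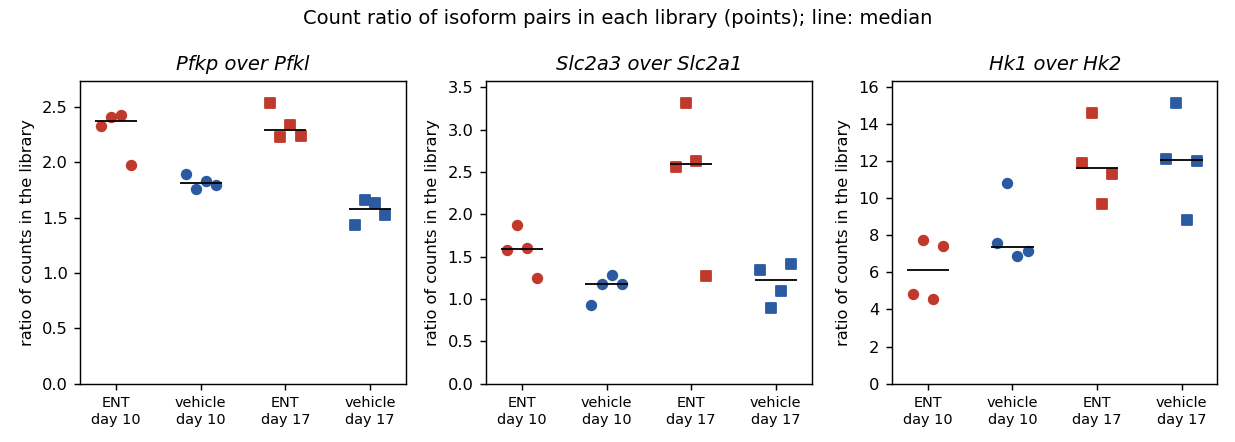
Ratio of the counts of 2 isoforms in each library (points), with the group median (line), entinostat (ENT) in red and vehicle in blue. Pfkp over Pfkl was 1.97 to 2.53 in the 8 entinostat libraries and 1.43 to 1.89 in the 8 vehicle libraries.

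The effect of entinostat differed between day 17 and day 10 for 3 of the 32 genes by the test of the difference itself, against 0.471% of all genes (0.218% higher and 0.253% lower at day 17). Tpi1 moved by 0.91 ± 0.20 on the log2 scale (edgeR adjusted p = 0.0455) and Pgk1 by 0.68 ± 0.14 (adjusted p = 0.0437), so the entinostat effect was more positive at day 17 than at day 10. Tpi1 had 271, 242, 393 and 256 CPM with entinostat at day 17, against 192, 234, 244 and 209.8 CPM with vehicle. The 393 CPM belong to entinostat day 17 replicate 3, the shallowest library. At day 17 alone the entinostat effect on Tpi1 was 0.38 ± 0.14 and not called (adjusted p = 0.063). Pgk1 had 144, 132, 128 and 146 CPM with entinostat at day 10, against 149.7, 148, 163 and 176 CPM with vehicle, a difference of -0.21 ± 0.10 that was not called (adjusted p = 0.148). Eno2 moved the other way, by -1.99 ± 0.41 (adjusted p = 0.0423). At day 17 it had 14.1, 24.9, 13.2 and 18.1 CPM with entinostat, against 20.0, 22.9, 22.1 and 30.3 CPM with vehicle, and the groups overlapped. The 13.2 CPM, of the shallowest library, rest on 8 counts.

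All 3 of these differences were fragile to single libraries. Leaving out 1 library at a time, Tpi1 was called only without entinostat day 10 replicate 4 or entinostat day 17 replicate 2, 3 or 4, and otherwise had adjusted p = 0.0575 to 0.0968. Pgk1 was called only without those or without vehicle day 17 replicate 2, and otherwise had adjusted p = 0.0582 to 0.0897. Eno2 was called only without entinostat day 17 replicate 2 or vehicle day 17 replicate 1, and otherwise had adjusted p = 0.0527 to 0.0997. Their sizes stayed at 0.73 to 1.02 for Tpi1, 0.59 to 0.73 for Pgk1 and -2.21 to -1.85 for Eno2 over these fits and the other alternatives. The call was also lost without the filter (adjusted p = 0.0575 for Tpi1, 0.0686 for Pgk1 and 0.0636 for Eno2), with depth in the model for Tpi1 and Pgk1 (adjusted p = 0.0771 and 0.0534), and with the replicate block for Pgk1 and Eno2 (adjusted p = 0.0796 and 0.0993). The median difference over the 32 genes was 0.42 against -0.20 over all genes, with 22 of 32 above 0. Over the 5 T cell markers found it was 0.492, with 5 above 0 and 0 called.

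With entinostat, 11 of the 32 genes were higher at day 17 and 1 was lower, against 3.26% and 10.5% of all genes (13.7% in either direction). With vehicle, edgeR called 1 higher and 0 lower, against 1.89% and 3.63% of all genes (5.52% in either direction). At an unadjusted p under 0.05, 2 were higher and 7 lower with vehicle, and DESeq2 called 3 lower (6.75% of all genes) and limma-voom 2 (8.54%). The share of all genes at that unadjusted threshold was not counted. Among the 16 glycolytic enzymes alone, 9 rose with entinostat. The median log2 fold change of the 32 genes was 0.17 with entinostat and -0.11 with vehicle, beside 0.03 and 0.13 over all genes. That a gene passed with entinostat and not with vehicle does not show a difference; the difference itself is the one tested above, and of these 12 genes it was called for Tpi1 and Pgk1. These comparisons share the same 4 entinostat or vehicle libraries with the treatment comparisons and are not separate evidence.

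Tpi1 rose most among the 11, with every day 17 entinostat library (242 to 393 CPM) above every day 10 entinostat library (114 to 164 CPM) and a difference of 1.09 ± 0.14 on the log2 scale (edgeR adjusted p = 7.01e-05). Pgk1 was at 212 to 276 CPM at day 17 and 128 to 146 CPM at day 10 with entinostat, an increase of 0.77 ± 0.10 (adjusted p = 8.08e-05). Pgam1 (phosphoglycerate mutase) had 111, 107, 148 and 115 CPM at day 17, against 70.6, 83.1, 70.8 and 81.6 CPM at day 10 with entinostat (log2 fold change 0.63 ± 0.12, adjusted p = 0.00238). Pkm had 609, 552, 966 and 599.8 CPM at day 17, against 488, 426, 460.3 and 414 CPM at day 10 (0.60 ± 0.15, adjusted p = 0.01). The 966 CPM belong to entinostat day 17 replicate 3, without which the Pkm difference was 0.39 ± 0.10 (adjusted p = 0.0211), and with depth in the model it was 0.31 ± 0.08 (adjusted p = 0.0251). Gpi1 had 275, 280.0, 278 and 242 CPM at day 17, against 216, 213, 185 and 223 CPM at day 10 (0.36 ± 0.08, adjusted p = 0.00667). In these 5 genes no library of one day reached into the other day, and all 5 stayed called under every alternative and with any 1 library left out. The share of all genes without overlap was not counted, here or in the other comparisons, so no excess can be read from such separation.

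Aldoa (log2 fold change 0.55 ± 0.14, adjusted p = 0.0135), Eno1 (0.53 ± 0.15, adjusted p = 0.0234), Gapdh (0.61 ± 0.20, adjusted p = 0.0475) and Ldha (0.67 ± 0.21, adjusted p = 0.0462) were also higher at day 17 with entinostat, and these are among the genes whose CPM falls with depth. The day 17 entinostat libraries were shallower on average. Without entinostat day 17 replicate 3, Eno1 (adjusted p = 0.0713), Gapdh and Ldha were not called and Aldoa was, and the same 3 were lost with depth in the model (adjusted p = 0.0533 for Eno1, 0.139 for Gapdh and 0.189 for Ldha). Gapdh was called in only 3 of the 16 fits with 1 library left out, those without entinostat day 10 replicate 1, entinostat day 17 replicate 2 or vehicle day 17 replicate 1, and Ldha in 3, those without entinostat day 17 replicate 1 or 2 or vehicle day 17 replicate 1 (elsewhere adjusted p = 0.0511 to 0.162 for Gapdh and 0.05 to 0.167 for Ldha). Eno1 was lost also without entinostat day 10 replicate 2 (adjusted p = 0.0837) or 4 (adjusted p = 0.0731), and Aldoa without entinostat day 10 replicate 2 (adjusted p = 0.0519).

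Outside glycolysis, Bnip3, which marks mitochondria for removal, had 55.3, 45.8, 44.4 and 52.1 CPM at day 17, against 20.0, 27.2, 29.1 and 32.6 CPM at day 10 with entinostat. The days did not overlap (log2 fold change 0.87 ± 0.22, adjusted p = 0.0138, lost without entinostat day 17 replicate 1 at adjusted p = 0.0508). Bhlhe40 had 606, 672, 694 and 454 CPM at day 17 against 566, 391, 401 and 442 CPM at day 10, which overlapped (0.43 ± 0.13, adjusted p = 0.0378), and with 1 library left out it was called only without entinostat day 10 replicate 1 or entinostat day 17 replicate 4 (elsewhere adjusted p = 0.0503 to 0.151). Hk2, the hexokinase that is induced on activation, was the gene that fell, with 24.0, 21.2, 26.3 and 19.5 CPM at day 17, against 50.7, 32.8, 51.2 and 37.0 CPM at day 10 with entinostat. The days were separate (log2 fold change -0.93 ± 0.25, adjusted p = 0.0195), and the call was lost by a small margin without entinostat day 10 replicate 1 or 3 or entinostat day 17 replicate 4 (adjusted p = 0.0535 to 0.0538). With vehicle Hk2 had 22.8, 16.6, 28.7 and 15.7 CPM at day 17, against 39.9, 26.9, 48.0 and 36.8 CPM at day 10, a log2 fold change of -0.85 ± 0.25 that just missed the threshold (adjusted p = 0.0511). The Hk2 fall with time was thus nearly the same size with and without the drug, and the entinostat effect on it differed between days by -0.08 ± 0.35 (adjusted p = 0.943).

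Eno2 was the one gene called with vehicle over time. Its 4 vehicle libraries of day 17 (20.0 to 30.3 CPM) all lay above its 4 vehicle libraries of day 10 (5.49 to 9.31 CPM). The log2 fold change was 1.66 ± 0.29 (edgeR adjusted p = 0.00468), and it held under every alternative and with any 1 library left out. With entinostat the change over the same days was -0.33 ± 0.29 (adjusted p = 0.506). Eno2 therefore stood low in 1 group of the 4, vehicle at day 10. That group also had the lowest receptor reads, 582 to 1863 CPM. Low receptor reads were also seen in entinostat day 10 replicate 4 (586 CPM) and vehicle day 17 replicate 1 (636 CPM). Eno2 had 24.9 and 20.0 CPM in these, against 9.31 CPM in vehicle day 10 replicate 2, with 582 receptor CPM. The part of receptor reads in the Eno2 counts was not tested. Among the genes not called with vehicle, Hif1a was at 497 to 584 CPM at day 17 and 624 to 711 CPM at day 10, without overlap (-0.31 ± 0.10, adjusted p = 0.0629), and Hif1a, Hk2 and Pfkp passed when entinostat day 17 replicate 3 was left out of the common fit.

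**Figure D5:**
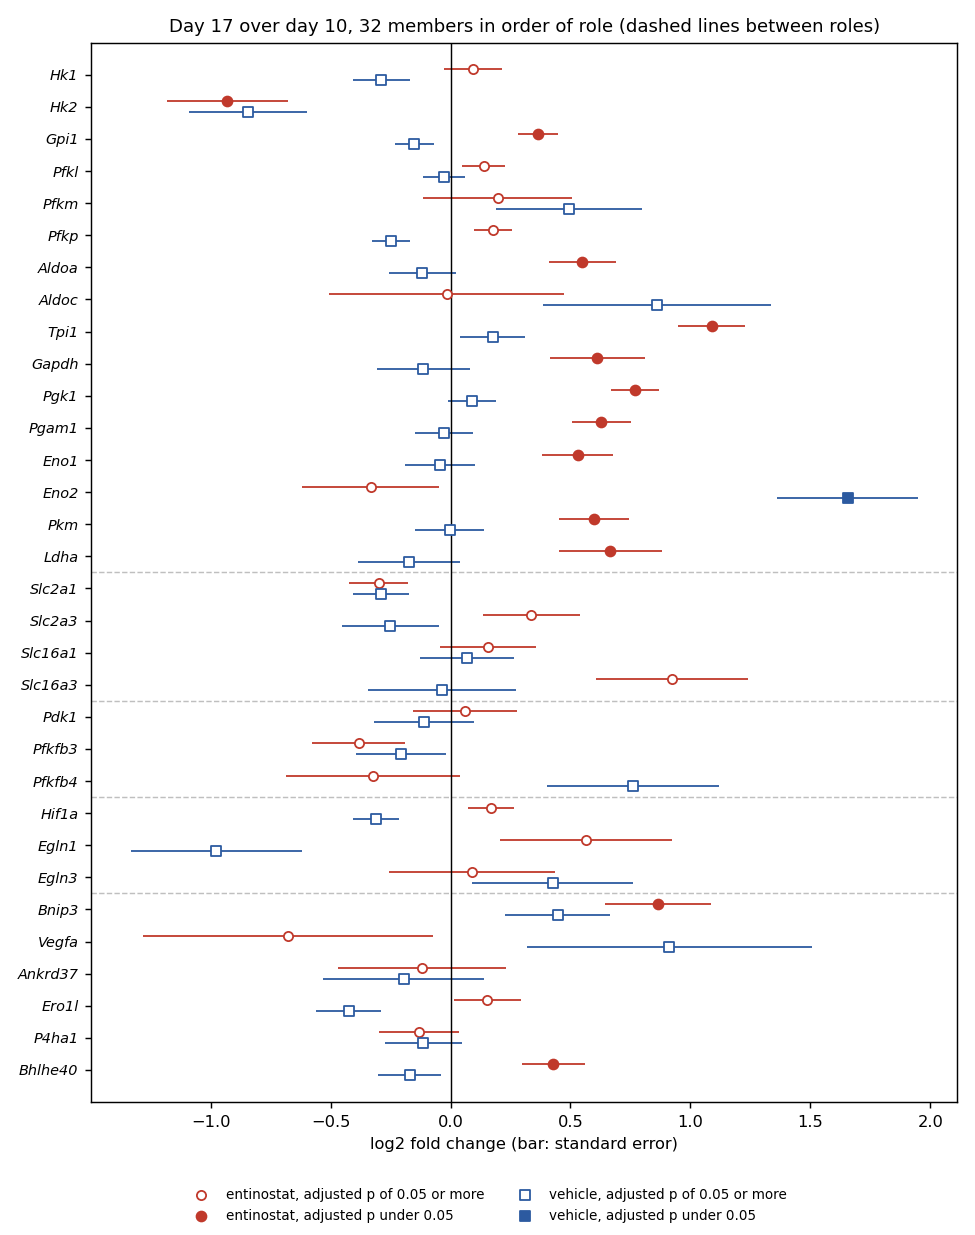
Log2 fold change of day 17 over day 10 for the 32 genes with entinostat (red circles) and vehicle (blue squares), with standard errors, in order of role. Filled symbols passed an adjusted p of 0.05, 12 with entinostat and 1 with vehicle, and most enzymes from Aldoa to Ldha lie above 0 with entinostat and near 0 with vehicle.

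Across the 5 comparisons 20 of the 32 genes were called at least once and 12 in none. The share of all genes called at least once was not counted, so no excess can be read from the 20. The 12 were Hk1, Pfkm, Aldoc, Slc16a1, Slc16a3, Pdk1, Pfkfb3, Pfkfb4, Egln3, Vegfa, Ankrd37 and Ero1l, which include all 3 regulators and both lactate transporters. Slc16a1, which carries lactate across the membrane, had 132 to 182 CPM with entinostat and 134 to 168 CPM with vehicle at day 10. Its sister Slc16a3, the exporter induced by hypoxia, had 34.5 to 75.8 CPM with entinostat and 15.3 to 61.5 CPM with vehicle at day 17 (log2 fold change 0.55 ± 0.31, adjusted p = 0.225). Pfkfb3, which makes the activator of phosphofructokinase, was the most abundant regulator, with 94.3, 80.8, 73.9 and 75.3 CPM with entinostat and 94.2, 78.7, 86.3 and 80.6 CPM with vehicle at day 10, and 81.5, 61.3, 44.4 and 54.4 CPM with entinostat and 94.1, 45.3, 73.1 and 80.4 CPM with vehicle at day 17. Its groups overlapped at both days. Pdk1, which holds pyruvate back from the mitochondrion, had 41.1 to 53.6 CPM with entinostat against 45.1 to 93.4 CPM with vehicle at day 10 (-0.48 ± 0.21, adjusted p = 0.115).

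Vegfa, the angiogenic factor, was the most variable of the set between libraries, with 22.2, 11.8, 9.20 and 48.3 CPM with entinostat and 11.6, 7.24, 7.90 and 27.1 CPM with vehicle at day 10, so that its log2 fold change of 0.77 had a standard error of 0.59 (adjusted p = 0.365). Aldoc, an aldolase isoform best known from brain, was likewise high in entinostat day 10 replicate 4 at 49.9 CPM, beside 12.9 to 15.9 CPM in the other 3. Ankrd37, an ankyrin repeat protein induced by hypoxia, had 5.13 to 16.2 CPM with entinostat and 16.5 to 22.5 CPM with vehicle at day 10 (-0.76 ± 0.34, adjusted p = 0.128). Ero1l, an oxidase of the endoplasmic reticulum, had 104 to 139 CPM with entinostat and 146 to 196 CPM with vehicle at day 10, with no overlap but without passing the test (-0.37 ± 0.14, adjusted p = 0.0677).

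Other genes of the pathway were read from lists of named genes. Of 26 other hypoxia targets, 2 were called at day 10, both lower with entinostat (Mif and Kdm3a), and 2 at day 17, Ddit4 higher and Kdm4b lower, both shares below those of all genes (14.6% and 18.3%). Ddit4 is an inhibitor of mTOR induced by stress, and it had 28 to 77.6 CPM with entinostat, against 16 to 19.5 CPM with vehicle at day 17, without overlap (log2 fold change 1.72 ± 0.34, edgeR adjusted p = 0.00195). Ndrg1, a stress-response gene, was higher at day 17 than at day 10 in both treatments (1.13 ± 0.25 with entinostat and 1.20 ± 0.25 with vehicle, adjusted p = 0.00492 and 0.012), and Rora and Cited2 were lower in both. Fam162a (0.64 ± 0.15, adjusted p = 0.00874) and Mif (0.53 ± 0.12, adjusted p = 0.0062) were higher at day 17 with entinostat. In that list of 26, 1 gene was higher and 3 lower with vehicle over time, against 1.89% and 3.63% of all genes. With entinostat 3 were higher and 4 lower, against 3.26% and 10.5% of all genes. Of 10 other regulators of HIF, 1 was called at each day, against 14.6% of all genes at day 10 and 18.3% at day 17. Hif3a, which encodes a further HIF subunit, was higher with entinostat at day 10 (3.33 to 9.80 CPM against 0.259 to 0.878 CPM with vehicle, near the receptor background), and Egln2, the remaining prolyl hydroxylase of the sensor, was lower at day 17 (-0.64 ± 0.16, adjusted p = 0.0095).

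Where pyruvate leaves glycolysis, Ldhb, the lactate dehydrogenase subunit that favours use of lactate, had 10.9, 9.91, 14.8 and 15.8 CPM with entinostat at day 17, against 42.6, 38.8, 40.0 and 36.1 CPM with vehicle. The groups were far apart (log2 fold change -1.64 ± 0.26, edgeR adjusted p = 0.000342). It was the 1 call of 13 genes of this list at day 17, where 18.3% of all genes were called. At day 10, where 14.6% of all genes were called, Pdk2 was higher (0.99 ± 0.31, adjusted p = 0.0422). Pdha1 and Pdhb, subunits of pyruvate dehydrogenase, were lower at that day (-0.41 ± 0.10 and -0.37 ± 0.10, adjusted p = 0.0175 and 0.0227). In the pentose phosphate pathway Pgls was lower with entinostat at both days, by -0.84 ± 0.14 at day 10 (adjusted p = 0.0018) and -0.72 ± 0.14 at day 17 (adjusted p = 0.00211). Of the 7 genes of that pathway, Tkt was the other one called at day 10 (-0.26 ± 0.08, adjusted p = 0.0445). Lower calls were made for 6.93% of all genes at day 10 and 13.0% at day 17. Among 12 brakes on glucose uptake and mTOR or MYC inputs, 3 were lower at day 10 (6.93% of all genes were), and 1 was higher and 5 lower at day 17 (5.29% and 13.0% of all genes). Rptor, the scaffold of the growth-controlling mTOR complex, was lower at both days (-0.71 ± 0.12 and -0.78 ± 0.12, adjusted p = 0.00185 and 0.000336). Akt1, a kinase of the growth factor pathway, was lower with entinostat at day 10 (-0.44 ± 0.13, adjusted p = 0.0333) and higher at day 17 (0.57 ± 0.13, adjusted p = 0.00615), a change of effect that passed its own test (1.01 ± 0.19, adjusted p = 0.0279). Akt1 had 211, 233, 206 and 236 CPM with entinostat, against 168, 146, 160.0 and 126 CPM with vehicle at day 17.

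In the treatment comparisons 9 calls named from these lists were kept in every alternative that tested the gene and with any 1 library left out. They were Hif3a, Pgls and Rptor at day 10 and Ddit4, Kdm4b, Ldhb, Pgls, Rptor and Akt1 at day 17. The mean of Hif3a lay below the receptor background, so the fit on genes above background did not test it. Akt1 at day 10 was lost without entinostat day 10 replicate 1 or 3 or any vehicle day 10 library (adjusted p = 0.0522 to 0.106) and with the replicate block (adjusted p = 0.0556), and its difference between days without entinostat day 10 replicate 1 or 3 or vehicle day 10 replicate 3 (adjusted p = 0.0569 to 0.0647) and with the replicate block (adjusted p = 0.0576). Pdk2 was lost without any 1 of the day 10 libraries except vehicle replicate 2 (adjusted p = 0.0538 to 0.113). Pdha1 was lost without entinostat day 10 replicate 2 or vehicle day 10 replicate 2 or 3 (adjusted p = 0.0516 to 0.0934), and Pdhb without entinostat day 10 replicate 1 or 3 or vehicle day 10 replicate 1 or 2 (adjusted p = 0.0681 to 0.114). Tkt was kept only without entinostat day 17 replicate 3, Mif at day 10 only without that library or entinostat day 10 replicate 4, and Kdm3a was lost in 9 of 16 such fits (adjusted p = 0.0504 to 0.131), all but those without vehicle day 10 replicate 4, entinostat day 17 replicate 2, 3 or 4, or vehicle day 17 replicate 1, 2 or 4. The block, read as a pairing of the day 10 libraries, also ended the day 10 calls of Pdk2 (adjusted p = 0.0748), Pdhb (adjusted p = 0.0546), Tkt (adjusted p = 0.11), Mif (adjusted p = 0.0924) and Kdm3a (adjusted p = 0.0792). Over time with vehicle, Ndrg1 was lost without vehicle day 10 replicate 3 (adjusted p = 0.0533), and Egln2 at day 17 was lost with depth in the model (adjusted p = 0.083).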

How the data were processed

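Per the labels' protocols, RNA of sorted cells was made into cDNA with the SMART-seq v4 kit and into libraries with Nextera XT, which amplify by PCR and mark neither strand nor single molecules. The deposited values are whole-number counts per gene, not scaled between libraries. STAR and mm10 come from the submitters' processing notes. How reads were assigned to genes, and whether duplicates were dropped, is not given in the sources used here. Overlapping antisense genes cannot be separated without strand. Positions and promoter sequences came from RefSeq tables (GRCm38.p6), matched by Entrez identifier for 23968 of 24028 genes.

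Groups, days, dose and replicate numbers came from the labels. P-values measure the spread between these libraries, which may be technical. Replicates of each group all differed by more than sampling noise, with chi-square values of at least 2.96 per degree of freedom. The 32 genes, the other lists, the alternatives and the rule for naming genes were chosen with earlier results of these data known. The rule names all 32 genes. It gives every library's value for those called in an entinostat comparison or in the difference of effects and for the most abundant of each role, and adds up to 4 called genes of smallest p from each other list.

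Genes past filterByExpr at a minimum count of 10 (17414 of them) were fitted in R 4.3.3 with edgeR 4.0.16 (quasi-likelihood test, TMM scaling, 4 group means, all 16 libraries, 12 residual degrees of freedom). P-values were adjusted by Benjamini-Hochberg over all genes within a comparison, with calls at 0.05. Adjusted p values in the text are edgeR's except where another tool is named. Precision follows the totals, and was lowest in the library of 554593 counts. The fit was tested on simulated data. Equal replicate numbers were checked for pairing by the correlation of deviations from the group means over 9772 genes of at least 16 CPM. It was 0.259, 0.260, 0.240 and 0.270 between entinostat and vehicle at day 10, where the numbers were taken to pair the libraries on the strength of the data, since the labels do not speak of pairing. Among those genes the day 10 libraries numbered 1, 2 and 4 correlated best with their own number, and number 3 did not. Over all genes tested the correlations were 0.180, 0.033, 0.114 and 0.057, and only number 1 was best with its own. The pairing is therefore uncertain. In no other comparison were all 4 above 0.1.

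Alternatives were DESeq2's size factors, library size alone, no filter, DESeq2 1.42.0, limma-voom 3.58.1 with quality weights, only the 11989 genes above background, a replicate block and each library left out. The fit on genes above background also recomputed the TMM scaling from those genes. Library depth (log2 total) in the model was added after the data were seen.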

Additional observations from a re-analysis of the deposited data

Results flagged for a closer look

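In groups of 4 libraries, 16 of the 128 gene and group values examined held a library whose gap to its nearest neighbour passed Dixon's 95% critical share of the group's range, where chance alone flags about 1 in 20. Of these, 5 were high values of the shallowest library, entinostat day 17 replicate 3, at 628 CPM for Aldoa, 248 CPM for Gapdh, 212 CPM for Eno1, 966 CPM for Pkm and 1140 CPM for Ldha, the same 5 genes whose CPM fell most steeply with depth. The deepest library, vehicle day 17 replicate 1, was low for Aldoa (279 CPM) and Ldha (318 CPM). Entinostat day 10 replicate 4 was high for Aldoc (49.9 CPM) and P4ha1 (136 CPM). Single libraries also stood apart for Gpi1 (242 CPM, entinostat day 17 replicate 4), Ero1l (124 CPM, entinostat day 17 replicate 1, and 196 CPM, vehicle day 10 replicate 3), Pgam1 (85.7 CPM, vehicle day 10 replicate 1), Egln3 (32.1 CPM, vehicle day 10 replicate 4), and Ankrd37 and P4ha1 (22.5 and 115 CPM, vehicle day 10 replicate 2).

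The entinostat effect differed between day 17 and day 10 by -1.99 on the log2 scale for Eno2, 0.91 for Tpi1 and 0.68 for Pgk1, each by the edgeR test of the difference (adjusted p = 0.0423, 0.0455 and 0.0437).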

How the results depend on the processing

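Of the 32 calls made for genes of the set over the 5 comparisons, 0 reversed under the 8 alternatives or the 16 fits with 1 library left out, and 11 were kept in all of them. Counts of genes called moved by over 1.5 times as follows, and the causes were not tested. For entinostat at day 10, the 6 genes of the set became 3 with library size alone and 3 with genes above background. That last fit both tested fewer genes and recomputed the TMM scaling from them. The 6 became 10 with limma-voom and 10 with depth in the model. The 2534 of all genes became 6746 with limma-voom, 1421 above background and 1160 with the replicate block. At day 17 the 10 became 6 without a filter and 3 with depth in the model, and 3190 became 4899 with limma-voom and 1643 with depth. For vehicle over time the 1 became 2 with DESeq2's size factors, 4 with DESeq2, 5 with limma-voom, 2 with the block and 5 with depth, and 961 became 490 with library size alone, 2158 with DESeq2, 2804 with limma-voom, 592 with the block and 1826 with depth. For entinostat over time 2393 became 3934 with limma-voom. For the difference of effects the 3 became 0 without a filter, 11 with DESeq2, 7 above background, 1 with the block and 1 with depth, and 82 became 130 with DESeq2's size factors, 144 with library size alone, 34 without a filter, 563 with DESeq2, 244 with limma-voom, 251 above background and 34 with the block. The edgeR fit without a filter left 0 of the set called for the difference, beside 18 at an unadjusted p under 0.05 in the filtered fit. For those 18 too, the share of all genes at that threshold was not counted.

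With 1 library left out, genes of the set called ranged from 3 to 7 (all genes 910 to 4151) for entinostat at day 10, 3 to 13 (1946 to 3658) at day 17, 1 to 5 (212 to 2699) over time with vehicle, 8 to 12 (1748 to 2826) over time with entinostat, and for the difference 0 to 4 (14 to 103). The replicate block is read as a pairing for day 10, where it left 5 of the set called and ended the Slc2a1 call. In the other comparisons the libraries share only a number, and the block left 7 of the set at day 17, 2 and 8 over time with vehicle and with entinostat, and 1 for the difference. Library size alone gave 76.0% higher calls among all genes called at day 10 where TMM gave 52.4%, 48.2% where it gave 28.9% at day 17, and 59.4% where it gave 34.2% with vehicle over time. Against that, genes above background had a median of 0.04, -0.02 and 0.09 with library size alone, where the TMM scaling gave -0.12, -0.17 and -0.04. Depth limits the genes of low CPM, and counts in the shallowest library were lowest for Pfkfb4 (4), Ankrd37 (6), Vegfa (8) and Eno2 (8).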
